A study of Homo sapiens with 12 samples.

Results

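The genes described here were the cadherin superfamily members of 201B7, an established human iPSC line derived from fibroblasts, in 4 culture conditions. They were defined by gene symbol, but this choice was made with earlier results of these data known. The same holds for the gene lists and marker lists below. Counts set beside shares of all genes are therefore descriptions and no test of the set. The members comprised the numbered CDH genes other than CDH1 and CDH2, the numbered PCDH genes and the PCDHA, PCDHB and PCDHG cluster genes. The desmocollins DSC1 to DSC3 and the desmogleins DSG1 to DSG4 were also included. Of 58575 genes in the count table, 93 were members. Of these, 54 lay in the protocadherin clusters (16 alpha, 16 beta and 22 gamma genes) and 39 lay outside them (21 CDH genes, 11 unclustered protocadherins and 7 desmosomal cadherins).

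RNA-Seq was measured in 3 libraries for each condition, 12 in all, from cells harvested on Day 5. The cells of all conditions were seeded in StemFit medium with the ROCK inhibitor Y-27632 on dishes coated with iMatrix511. Cond 1 was the control. Cond 2, labelled "Low nutrient", received StemFit that had been heated at 56 °C for 30 min, Cond 3, labelled "Differentiation", received DMEM with 10% FBS, non-essential amino acids and GlutaMax, and Cond 4, labelled "Physical stimulas", was pipetted 20 times at passage. The wells came from a single line. The study calls the replicates technical, while its methods describe the whole arrangement as carried out in triplicate. The p-values therefore measured only the spread between such replicates of a single line. No batch was given in the labels. The study describes the heated medium as given from an earlier day of culture than the FBS medium. Length of exposure before harvest thus also differed between Cond 2 and Cond 3.

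Cadherins are calcium-dependent adhesion proteins whose extracellular repeats bind cadherins on the neighbouring cell. Type I and type II classical cadherins anchor adherens junctions to actin through the catenins, and desmocollins and desmogleins anchor desmosomes to intermediate filaments. Type II cadherins and the delta protocadherins are known for the sorting of cell groups in the early nervous system. The clustered protocadherins lie in tandem arrays on chromosome 5, where each alpha and gamma gene has a first exon with a promoter of its own that is spliced to constant exons shared by the cluster, and each beta gene is a separate gene. Neurons choose among these promoters, and the resulting combinations serve in the recognition of self between neurites.

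Totals were between 16441148 and 21871503 counts per library, of which 22416 to 36484 fell on members and 1728 to 2652 on clustered protocadherins. The labels name the tissue as skin and the cell type as iPS. All 12 genes of a pluripotent stem cell marker list had a mean above 1 TPM (a transcript level scaled by gene length and library size) in every condition, with a summed level of 8061 to 9965 TPM per library. Of 8 epidermal genes, KRT10 had 42.5 ± 2.97 TPM (SD, n = 3) in Cond 1, and the other 7 had means under 1 TPM in every condition, with FLG at 0 in all libraries. Of 10 skin fibroblast genes 5 had means above 1 TPM in Cond 1, among them COL1A1 at 246 ± 12.6, THY1 at 141 ± 15.8 and COL1A2 at 47.0 ± 1.60 TPM, while FAP was at 0 in all libraries and DCN in all of Cond 1, Cond 2 and Cond 3. Library by library values are given first for each gene below, and a fold change is the TMM-normalized log2 ratio from edgeR's quasi-likelihood test with its standard error (SE) and a Benjamini-Hochberg adjusted p-value over the 17747 genes tested. A gene was called at an adjusted p-value under 0.05 and was a DEG when its fold change was also above 2. Where all 3 libraries of one condition lay outside the range of another, the exact two-sided permutation test on TPM gave p = 0.1, which was the smallest value 3 against 3 allows.

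Few members were abundant. Outside the clusters, 8 of 39 had a mean above 10 TPM over all libraries, 10 had 1 to 10 TPM and 21 had less than 1 TPM. Among the 54 clustered genes none exceeded 10 TPM, 15 had 1 to 10 TPM and 39 had less than 1 TPM. Of the 93 members, 64 passed the filter on low counts and were tested, 36 in the clusters and 28 outside them. The 18 clustered genes not tested had at most 14 reads in any library and the 11 others at most 28. CDH16, DSG4, PCDHA1 and the pseudogene PCDHA14 had no read in any library, and the endothelial VE-cadherin CDH5 and the epidermal desmosomal genes DSG1, DSG3 and DSC1 were among those not tested. Since a member low in one condition could pass the filter through another, the counts below refer to the members tested and not to all members.

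The most abundant member was DSG2 (ENSG00000046604, chr18:31498177-31549008, forward strand), the desmoglein found in most epithelia. It had 220.3, 191 and 208 TPM in Cond 1, 223, 241 and 257 in Cond 2, 203, 211 and 205 in Cond 3 and 216, 198 and 215 in Cond 4. Every library of Cond 2 lay above every library of the other conditions, but the differences were small. The log2 fold changes were 0.13 in Cond 2, -0.027 in Cond 3 and 0.0094 in Cond 4, none of them called. Its fold change of Cond 3 against Cond 2 was -0.16 (SE 0.056, adjusted p = 0.0292), a call lost with an adjusted p of 0.141 without replicate 3 of Cond 2 and likewise without replicate 2 of Cond 2 or replicate 1 or 3 of Cond 3. The TPM of DSG2 was computed by the authors with a gene length of 6056 bases, whereas the annotation used here gives 9492 exonic bases, so that its place relative to other genes depends on the annotation.

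PCDH1 (ENSG00000156453, chr5:141853090-141879246, reverse strand), a delta-1 protocadherin of epithelia, was next in level. It had 198, 180.2 and 182 TPM in Cond 1, 204, 204 and 216 in Cond 2, 121, 114 and 121 in Cond 3 and 174, 166 and 183 in Cond 4. All 3 libraries of Cond 3 lay below those of the other conditions. Its log2 fold change in Cond 3 was -0.68 (SE 0.054, adjusted p = 1.08e-09) against Cond 1 and -0.75 (SE 0.054, adjusted p = 1.98e-10) against Cond 2, and it was 0.069 in Cond 2 (adjusted p = 0.414). P-cadherin, CDH3 (ENSG00000062038, chr16:68636189-68727468, forward strand), a type I cadherin that lies next to CDH1 on chromosome 16, had 156, 157 and 152 TPM in Cond 1, 113, 129.6 and 131 in Cond 2, 143, 122 and 128 in Cond 3 and 152, 141 and 152 in Cond 4. Every library of Cond 2 and Cond 3 was below every library of Cond 1. Its log2 fold change was -0.40 (SE 0.06, adjusted p = 2.26e-05) in Cond 2 and -0.27 (SE 0.059, adjusted p = 8.69e-04) in Cond 3, and limma on log2(TPM + 0.1) made neither call, nor limma on log2(TPM + 1) that of Cond 3.

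CDH24 (ENSG00000139880, chr14:23047062-23057538, reverse strand), a type II cadherin, had 44, 41.7 and 36.7 TPM in Cond 1, 52.3, 45.3 and 44.9 in Cond 2, 44.9, 41.1 and 45.6 in Cond 3 and 38.5, 39.4 and 35.2 in Cond 4. Every library of Cond 2 lay above every library of Cond 1, while the ranges of Cond 1 and Cond 3 overlapped. No comparison of CDH24 was called. These genes and PCDH18 are the 5 most abundant members outside the clusters, and of the 5 only PCDH18 changed by more than 2 times. The plot of levels by library shows that the larger changes lay lower on the scale.

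**Figure D1:**
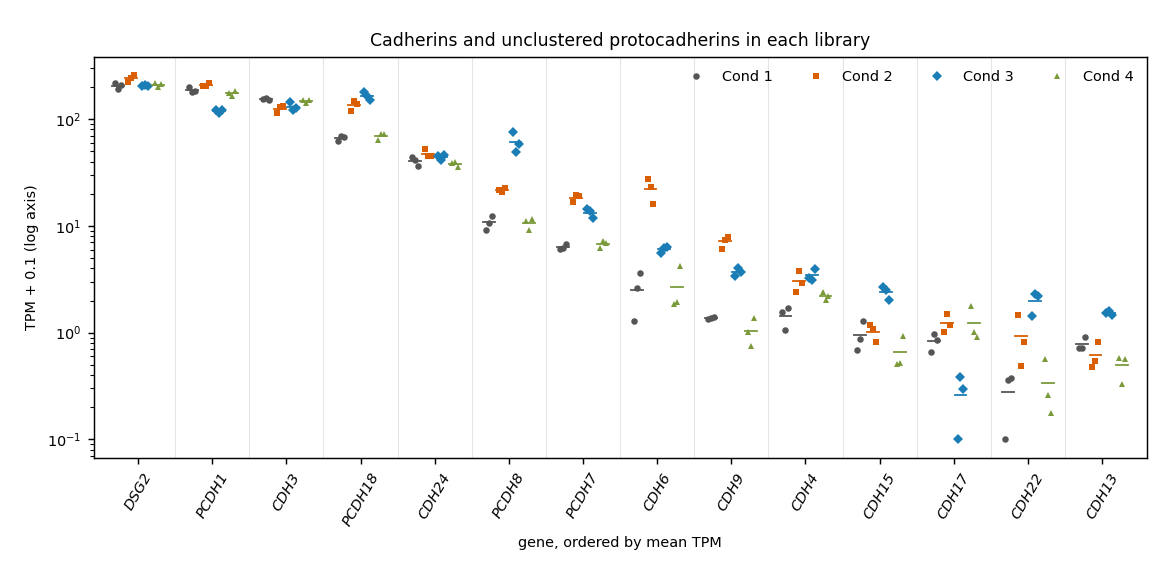
TPM + 0.1 on a log axis for 14 members outside the protocadherin clusters, with 1 symbol per library and a short line at the mean of the 3 libraries of each condition. DSG2 and CDH24 differ little between conditions, PCDH1 is lowest in Cond 3, and CDH3 is lower in Cond 2 and Cond 3 than in Cond 1. CDH6 and CDH9 are highest in Cond 2, and PCDH8 and PCDH18 in Cond 3.

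Heated medium (Cond 2) was compared with the control to see which adhesion genes respond to a weakened maintenance medium. Outside the clusters 9 members rose and 1 fell of 28 tested, where 20.9% of all genes tested were called, 10.8% higher and 10.1% lower. DEGs numbered 6, all higher, against 4.34% of all genes tested, 1.84% for those higher. The median log2 fold change of the 28 members was 0.40, and that of all genes tested was 0.00018. The members that rose were CDH6, CDH9, CDH22, CDH7 and CDH4 among the cadherins, PCDH7, PCDH8 and PCDH18 among the protocadherins, and DSC2. CDH3 was the member that fell.

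Differentiation medium (Cond 3) was compared with the same 3 control libraries. Here 13 members outside the clusters rose and 5 fell of 28 tested, with 38.4% of all genes tested called, 19.5% higher and 18.8% lower. DEGs numbered 12, of which 10 were higher and 2 lower, against 8.16% of all genes tested, 4.85% higher and 3.31% lower. The median log2 fold change was 0.30 for the members and -0.0064 for all genes tested. The plot of log2 fold changes by role places these values side by side. Both comparisons use the same Cond 1 libraries and are not independent, and Cond 3 was therefore also compared with Cond 2 directly. Kind of medium and length of exposure differ together between Cond 3 and Cond 2 and cannot be told apart. In that comparison 4 members outside the clusters were higher in Cond 3 and 9 lower, with 38.2% of all genes tested called, 19% higher and 19.2% lower.

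**Figure D2:**
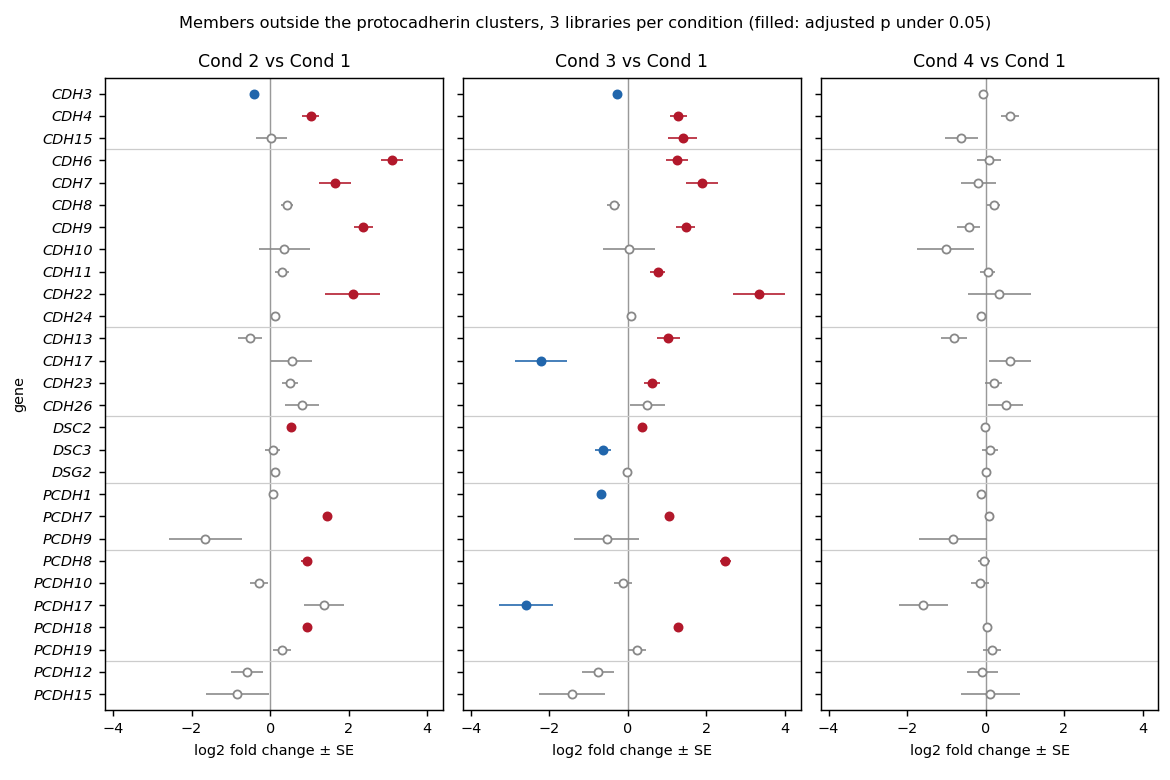
Log2 fold change with its standard error for the 28 tested members outside the clusters, grouped from top to bottom as type I, type II and other cadherins, desmosomal cadherins, and delta-1, delta-2 and other unclustered protocadherins. Filled red and blue points have an adjusted p-value under 0.05 for higher and lower levels, of which there are 10 in Cond 2, 18 in Cond 3 and 0 in Cond 4, while open grey points were not called.

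Type II cadherins showed the largest increases in Cond 2. Of 8 tested, 4 rose and 0 fell in Cond 2, and 5 rose and 0 fell in Cond 3, where 10.8% and 19.5% of all genes tested were higher and 10.1% and 18.8% lower. CDH6 (ENSG00000113361, chr5:31193686-31329146, forward strand), K-cadherin, is known from the neural folds and the kidney. It had 1.18, 2.50 and 3.55 TPM in Cond 1, 27.1, 23.2 and 16.1 in Cond 2, 5.48, 6.14 and 6.19 in Cond 3 and 1.77, 1.85 and 4.07 in Cond 4, resting on 81 to 259 reads per library in Cond 1. All libraries of Cond 2 were above all others, and those of Cond 3 lay between Cond 2 and Cond 1. The increase was 8.62-fold in Cond 2, a log2 fold change of 3.11 (SE 0.27, adjusted p = 1.25e-08). It was 1.26 (SE 0.28, adjusted p = 0.00103) in Cond 3, a call lost with limma on log2(TPM + 0.1), and Cond 3 was lower than Cond 2 by a log2 fold change of -1.85 (SE 0.25, adjusted p = 3.51e-06).

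CDH9 (ENSG00000113100, chr5:26880597-27121150, reverse strand), a cadherin of specific synapses in the hippocampus, followed the same order of conditions. It had 1.25, 1.26 and 1.30 TPM in Cond 1, 5.98, 7.33 and 7.85 in Cond 2, 3.26, 3.95 and 3.63 in Cond 3 and 0.904, 0.648 and 1.27 in Cond 4. Its 3 control libraries agreed closely and no library of Cond 2 or Cond 3 came near them. The fitted log2 fold change was 2.38 (SE 0.24, adjusted p = 1.09e-07) in Cond 2 and 1.47 (SE 0.25, adjusted p = 4.89e-05) in Cond 3, and -0.90 (SE 0.22, adjusted p = 0.00201) in Cond 3 against Cond 2.

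CDH22 (ENSG00000149654, chr20:46173739-46308498, reverse strand), a cadherin of brain and pituitary, was sparse, with 0, 6 and 8 reads in Cond 1, 34, 11 and 17 in Cond 2, 40, 59 and 55 in Cond 3 and 11, 4 and 2 in Cond 4. Each library of Cond 2 and Cond 3 held more reads than any of Cond 1. With edgeR the log2 fold change was 2.1 (SE 0.70, adjusted p = 0.0340) in Cond 2 and 3.34 (SE 0.67, adjusted p = 3.73e-04) in Cond 3. The call in Cond 2 was lost without replicate 1 of Cond 1 (log2 fold change 1.51, adjusted p = 0.134) or of Cond 2 (1.5, adjusted p = 0.178), and without replicate 1 of Cond 1 the value in Cond 3 was 2.74 (adjusted p = 0.00229). Limma on log2(TPM + 1) or log2(TPM + 0.1) did not make the call in Cond 2 either.

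Of the other type II genes, CDH7, which marks migrating neural crest in birds, rose at a low level with a log2 fold change of 1.66 (SE 0.40, adjusted p = 0.00403) in Cond 2 and 1.89 (SE 0.40, adjusted p = 6.13e-04) in Cond 3. CDH11, the cadherin of mesenchyme and osteoblasts, had 166 to 281 reads per library in Cond 1 and a log2 fold change of 0.76 (SE 0.19, adjusted p = 0.00244) in Cond 3, which was not called with limma on log2(TPM + 1) or log2(TPM + 0.1). CDH8 was lower in Cond 3 than in Cond 2, at -0.79 (SE 0.16, adjusted p = 4.99e-04), and was called against Cond 1 in neither condition. CDH10 had 4 to 18 reads per library and no call.

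Among type I cadherins CDH4 (ENSG00000179242, chr20:61252261-61940617, forward strand), R-cadherin of the retina and forebrain, had 1.47, 0.958 and 1.59 TPM in Cond 1, 2.32, 3.68 and 2.82 in Cond 2, 3.17, 3.04 and 3.89 in Cond 3 and 2.28, 1.94 and 2.09 in Cond 4. Every library of Cond 2 and Cond 3 lay above all control libraries, as did every library of Cond 4, where it was not called. On the log2 scale the change was 1.03 (SE 0.22, adjusted p = 0.00142) in Cond 2 and 1.29 (SE 0.22, adjusted p = 6.71e-05) in Cond 3, and the direct comparison of Cond 3 with Cond 2 gave 0.25 (adjusted p = 0.366). CDH15 (ENSG00000129910, chr16:89171748-89195492, forward strand), M-cadherin of muscle precursors, had 15, 17 and 32 reads in Cond 1, 25, 26 and 16 in Cond 2, 73, 61 and 47 in Cond 3 and 9, 10 and 21 in Cond 4. Reads were more numerous in every library of Cond 3 than in any other library, whereas Cond 1 and Cond 2 overlapped. This gave a log2 fold change of 1.40 (SE 0.37, adjusted p = 0.00411) in Cond 3 and 0.03 in Cond 2 (adjusted p = 0.972).

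Cadherins of other structure also moved with Cond 3. CDH13 (ENSG00000140945, chr16:82626965-83800640, forward strand), T-cadherin, which is held in the membrane by a lipid anchor and has no cytoplasmic tail, had 38, 32 and 52 reads in Cond 1, 21, 28 and 38 in Cond 2, 96, 91 and 80 in Cond 3 and 25, 13 and 28 in Cond 4. Cond 3 stood above the other conditions in all libraries. Its log2 fold change was 1.03 (SE 0.30, adjusted p = 0.00776) against Cond 1 and 1.55 (SE 0.30, adjusted p = 3.16e-04) against Cond 2. An antisense transcript overlaps 21.4% of its exonic bases, and the strand setting of the authors' counting is not stated. Antisense overlap also covers 21.2% of the exonic bases of PCDHB16, 18.9% of CDH23, 11.7% of PCDHB3 and 10.4% of PCDHA12, described below.

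CDH17, the liver-intestine cadherin, had 12, 16 and 17 reads in Cond 1, 18, 31 and 20 in Cond 2, 0, 6 and 4 in Cond 3 and 31, 18 and 17 in Cond 4. The libraries of Cond 3 held fewer reads than all others. The fitted log2 fold change was -2.22 (SE 0.66, adjusted p = 0.0104) against Cond 1 and -2.76 (SE 0.64, adjusted p = 0.00146) against Cond 2. Without replicate 1 of Cond 3, the library with 0 reads, the value against Cond 1 was -1.60 (adjusted p = 0.0511) and against Cond 2 -2.15 (adjusted p = 0.00843), and without replicate 2 of Cond 3 they were -2.93 and -3.48. CDH23, known from the tip links of hair cells, had a log2 fold change of 0.61 (SE 0.21, adjusted p = 0.0243) in Cond 3, but its groups overlapped and the adjusted p was 0.153 without replicate 1 of Cond 3, with the call also lost without replicate 3 of Cond 3 or replicate 1 or 2 of Cond 1. CDH26 was not called in any comparison.

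Desmosomal cadherins changed little. DSC2, the desmocollin of simple epithelia and heart, had 16.5 to 18.2 TPM in Cond 1, 24.6 to 28.1 in Cond 2, 21.9 to 24.5 in Cond 3 and 16.1 to 19.2 in Cond 4. Both medium changes raised it, with log2 fold changes of 0.53 (SE 0.076, adjusted p = 1.61e-05) and 0.36 (SE 0.076, adjusted p = 6.87e-04). DSC3, a desmocollin of stratified epithelia, fell by less than 2 times in Cond 3, with a log2 fold change of -0.64 (SE 0.20, adjusted p = 0.0152) against Cond 1 that was lost without replicate 1 of Cond 1 (adjusted p = 0.131) or replicate 3 of Cond 3 (adjusted p = 0.0778), and of -0.70 (SE 0.20, adjusted p = 0.00789) against Cond 2, lost with limma on log2(TPM + 1) or log2(TPM + 0.1).

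Among unclustered protocadherins, 3 of 10 tested rose in Cond 2, and 3 rose and 2 fell in Cond 3. These were 30% and 50% called, beside 20.9% and 38.4% of all genes tested called in either direction. PCDH18 (ENSG00000189184, chr4:137518918-137532494, reverse strand), a delta-2 protocadherin, was the most abundant of those that rose. It had 63.0, 69.9 and 68.3 TPM in Cond 1, 120.2, 148 and 139.8 in Cond 2, 180.3, 166 and 151 in Cond 3 and 63.0, 72.7 and 73.1 in Cond 4. Cond 3 lay above Cond 2 in every library, and Cond 2 above Cond 1 and Cond 4. With edgeR the log2 fold change was 0.93 (SE 0.073, adjusted p = 1.89e-09) in Cond 2 and 1.28 (SE 0.074, adjusted p = 5.68e-12) in Cond 3. The difference of 0.35 (SE 0.072, adjusted p = 4.98e-04) between Cond 3 and Cond 2 was not called with limma on log2(TPM + 1) or log2(TPM + 0.1).

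PCDH8 (ENSG00000136099, chr13:52842889-52848641, reverse strand), paraxial protocadherin, is known for tissue separation in gastrulation and somite formation. It had 8.99, 10.7 and 12.4 TPM in Cond 1, 21.6, 20.8 and 22.6 in Cond 2, 75.8, 49.3 and 58.4 in Cond 3 and 11, 9.08 and 11.4 in Cond 4. Its libraries in Cond 2 lay between those of Cond 1 and those of Cond 3. On the log2 scale the change was 0.93 (SE 0.14, adjusted p = 2.28e-05) in Cond 2 and 2.49 (SE 0.14, adjusted p = 2.23e-12) in Cond 3, the latter a 5.61-fold increase, and 1.56 (SE 0.13, adjusted p = 1.96e-09) in Cond 3 against Cond 2. PCDH7 (ENSG00000169851, chr4:30720369-31146805, forward strand), a delta-1 protocadherin known from the ectoderm of frog embryos, took the opposite order. It had 5.96, 6.17 and 6.63 TPM in Cond 1, 16.7, 19.2 and 18.9 in Cond 2, 14.3, 13.6 and 11.8 in Cond 3 and 6.06, 7.06 and 6.87 in Cond 4. Cond 2 was above Cond 3 and Cond 3 above Cond 1 in all libraries. This gave a log2 fold change of 1.45 (SE 0.093, adjusted p = 5.90e-11) in Cond 2, 1.05 (SE 0.094, adjusted p = 7.83e-09) in Cond 3 and -0.41 (SE 0.089, adjusted p = 8.60e-04) in Cond 3 against Cond 2, and an antisense transcript overlaps 12.4% of its exonic bases.

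PCDH17, a delta-2 protocadherin of axons, reached at most 1.04 TPM in any library and had 12, 22 and 6 reads in Cond 1, 44, 44 and 23 in Cond 2, 3, 3 and 1 in Cond 3 and 3, 4 and 6 in Cond 4. Each library of Cond 2 held more reads than any other library, and each of Cond 3 held 3 or fewer. Its log2 fold change was 1.37 (SE 0.51, adjusted p = 0.0599) in Cond 2, not called, and -2.60 (SE 0.68, adjusted p = 0.00407) in Cond 3, where leaving out replicate 2 of Cond 1 gave -1.92 (adjusted p = 0.0461) and limma on log2(TPM + 1) lost the call. Against Cond 2, Cond 3 was lower by a log2 fold change of -3.97 (SE 0.64, adjusted p = 3.33e-05). PCDH10, PCDH12, PCDH15, PCDH19 and PCDH9 had no call in any comparison.

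Cell type markers moved with the same conditions in both directions. In Cond 2, where 10.8% of all genes tested were higher and 10.1% lower, 5 of 7 tested neural plate genes were higher and 0 lower, and their summed level was 471 to 764 TPM per library against 21.9 to 36.3 in Cond 1. All 10 surface ectoderm genes were higher, with a summed level of 84.6 to 132 TPM against 46.5 to 53.4. Of 7 tested skin fibroblast genes 0 were higher and 3 lower, at 266 to 317 TPM against 428 to 456. Of 5 tested neural crest genes 1 was higher and 2 lower, with FOXD3 at -2.08 (SE 0.14, adjusted p = 1.55e-10) and ETS1 at -1.44 (SE 0.11, adjusted p = 1.43e-09), and the summed level was 66.9 to 79.7 TPM against 99 to 117. Of 5 tested endothelium genes 2 were higher and 2 lower, at 63.4 to 70.5 TPM against 84.9 to 99.1, with EMCN at 0 in all conditions. Of 5 tested mesendoderm genes 1 was higher, at 19.1 to 23.1 TPM against 12.9 to 22.4.

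In Cond 3, where 19.5% of all genes tested were higher and 18.8% lower, 3 of 7 skin fibroblast genes were higher and 1 lower, with a summed level of 590 to 627 TPM. Of the neural plate genes 2 were higher and 1 lower (59.3 to 78.6 TPM), and of the surface ectoderm genes 4 were higher (53.8 to 60.9 TPM). Neural crest genes had 0 higher and 2 lower (104 to 111 TPM), endothelium genes 2 higher and 1 lower (95.6 to 109 TPM) and mesendoderm genes 2 higher (19.6 to 24.0 TPM). Among the 12 pluripotent stem cell genes, 4 were higher and 5 lower in Cond 2, and 5 higher and 5 lower in Cond 3. NANOG fell in both media, by log2 fold changes of -1.09 (SE 0.08, adjusted p = 6.43e-10) in Cond 2 and -2.16 (SE 0.085, adjusted p = 1.40e-14) in Cond 3, and TDGF1 had -1.5 (SE 0.11, adjusted p = 4.34e-10) and -0.94 (SE 0.11, adjusted p = 2.58e-07). The part of these markers in the changes of CDH6, CDH9 and the other members was not tested. In bulk RNA, more or fewer cells of a type and more or less RNA per cell cannot be told apart.

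Repeated pipetting (Cond 4) was compared with the control as a mechanical disturbance. No member was called, 0 of 36 in the clusters and 0 of 28 outside them, by edgeR's quasi-likelihood test, by DESeq2 or by limma on TPM, and of all genes tested 0.0282% were called, 0.0225% higher and 0.00563% lower, and 0.0169% were DEGs, 0.0113% higher and 0.00563% lower. At an unadjusted p-value under 0.05 there were 0 clustered members and 4 others, CDH4 (log2 fold change 0.62, SE 0.23), CDH13 (-0.81, SE 0.33), PCDH17 (-1.59, SE 0.62) and PCDH1 (-0.11, SE 0.053). All 4 were also called in comparisons of the media. Log2 fold changes in Cond 4 were 0.042 (SE 0.074) for PCDH18, 0.078 (SE 0.10) for PCDH7 and 0.077 (SE 0.30) for CDH6.

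The protocadherin clusters lie on the forward strand of chromosome 5 in GRCh38, the alpha genes between 140786136 and 141012347, the beta genes between 141051374 and 141249365 and the gamma genes between 141330514 and 141512977. The 15 alpha genes that reach the constant exons share 21.4 to 56.6% of their exonic bases with other genes on the same strand and gamma genes 27.5 to 64.4%, the constant exons included, whereas beta genes share at most 9.54%. The pseudogene PCDHA14, of 1 exon, shares 100% of its bases with another gene and does not reach the constant exons, and PCDHGB4 and PCDHGA8 share 4443 bases each where the other gamma genes share 2177. PCDHA1 had no read although it includes the alpha constant exons, so reads from these exons were not assigned to every gene that holds them. How the reads of constant exons were treated is not stated. The TPM of alpha and gamma genes is divided by a length that includes those exons, and their levels cannot be compared with those of beta genes.

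The clustered promoters are known for a short conserved sequence element that contains CGCT and lies at sites bound by CTCF. Promoters from 250 bases before to 50 after the start (RefSeq, GRCh38.p14) were held for 47 of the 54 clustered genes, and CGCT occurred on the forward strand in 46 of them (97.9%) against 54.3% of all 34943 promoters. The longer word GTCGCT was found in 11 of 13 alpha promoters against 4.35% of all promoters, GGCGCT in 13 of 14 beta promoters against 12.5%, and CGCTGT in 17 of 20 gamma promoters against 5.94%. Counted on both strands, the shares of all promoters were 7.94%, 21.6% and 11.2%. Each word was picked as the word of 6 bases containing CGCT that occurred in most promoters of its own cluster. The 3 words therefore share these letters by choice. Their high shares within the clusters also follow in part from this choice and are no test of enrichment. The windows below, of 24 bases on the forward strand and with the word in capitals, are shown because they lie upstream of genes called in a comparison below, with PCDHB9 and PCDHGA10, which were not called in any comparison, for contrast.

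PCDHA2, chr5:140794785-140794808: gccacatgatGTCGCTgtccacca
PCDHA12, chr5:140875248-140875271: gtcacatgatGTCGCTctacactc
PCDHAC1, chr5:140926224-140926247: agaaggtgtgGTCGCTcacgttca

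PCDHB2, chr5:141094548-141094571: gacgcggggtGGCGCTgcagcctt
PCDHB3, chr5:141100397-141100420: aacgcatggtGGCGCTgttgacta
PCDHB16, chr5:141182314-141182337: aacgcgtggtGGCGCTgcaggtta
PCDHB9, chr5:141187078-141187101: gccacaaggtGGCGCTgcagactg
PCDHB10, chr5:141192303-141192326: gccacacggtGGCGCTgcaggcta
PCDHB14, chr5:141223267-141223290: gacacatggtGGCGCTacaggata
PCDHB15, chr5:141245318-141245341: aacgcatggtGGCGCTgcaggcta

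PCDHGB2, chr5:141359925-141359948: acctctgagcgtCGCTGTtggtca
PCDHGA6, chr5:141373839-141373862: gactctaagcgtCGCTGTtgacca
PCDHGB6, chr5:141407928-141407951: gcctctgggcgcCGCTGTcggcca
PCDHGA10, chr5:141412935-141412958: gactctgagcgcCGCTGTtcacct
PCDHGC3, chr5:141475884-141475907: gactctgtgtgcCGCTGTcggcca
PCDHGC4, chr5:141484956-141484979: gagcccgggagcCGCTGTctgcca

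Only windows that hold the word of their cluster are printed, so that the capitals agree within a cluster by this choice. PCDHA9, PCDHAC2, PCDHB1, PCDHGB3, PCDHGB7 and PCDHGA11 did not hold the word of their cluster in this window. PCDHAC2 and PCDHGB7, without it, were the members with the most reads in the alpha and gamma clusters, and both were called lower in a comparison below. A match of letters does not show that a site is used, and a missing match says only that these letters were not in the window.

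Reads fell on few of the clustered genes. PCDHAC2 and PCDHA11 held 42.5% of alpha counts, PCDHB15 and PCDHB2 45.3% of beta counts, and PCDHGB7 and PCDHGB6 46.3% of gamma counts. The downstream 8 of 16 alpha genes, from PCDHA9 on, held 78.1% of alpha counts (71.8 to 84.1% over libraries), the downstream 8 of 16 beta genes, from PCDHB16 on, 63.8% (50.7 to 70.9%), and the downstream 11 of 22 gamma genes, from PCDHGA8 on, 87.6% (84.1 to 92.1%). Whole-gene CPM (counts scaled to library size) was also divided by the kilobases not shared with another gene and averaged over all libraries. Among alpha and gamma genes, the highest were PCDHGB7 at 4.79, PCDHGC3 at 2.78 and PCDHGB6 at 2.50. PCDHAC2 followed at 2.44, PCDHA11 at 2.31 and PCDHA12 at 2.14. Any reads counted from shared exons stayed in these values, which therefore cannot be compared with those of beta genes. These orders are descriptions of the libraries, and genes beside each other in the order often differed by less than their spread.

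**Figure D3:**
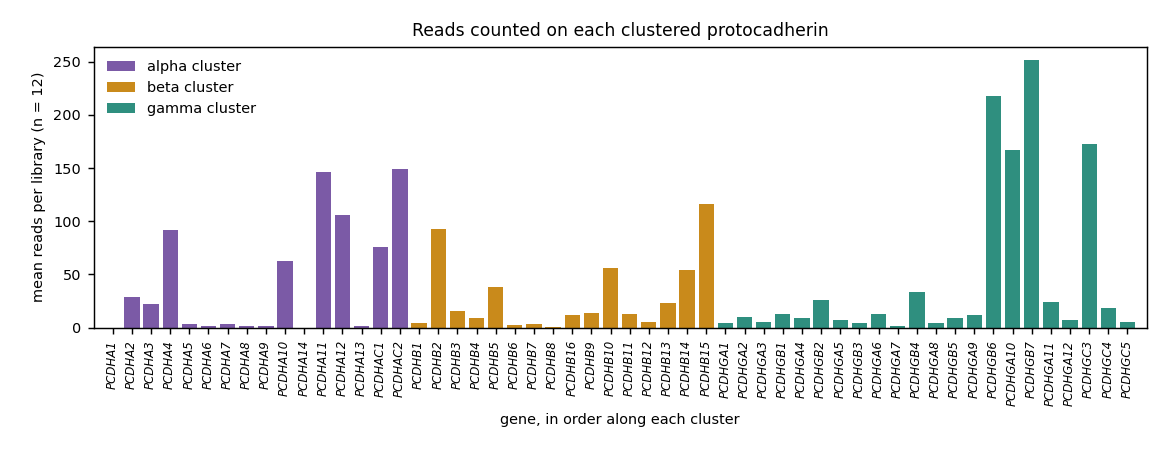
Mean reads per library over all 12 libraries for the 54 clustered protocadherins, in order along the alpha, beta and gamma clusters. The downstream 8 alpha, 8 beta and 11 gamma genes hold most reads of their cluster. This is least clear in the beta cluster, where PCDHB2 near the upstream end has a mean of 92.6 reads. The tallest bars are PCDHGB7, with a mean of 252 reads, and PCDHGB6, with 218.

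In Cond 2, 1 clustered gene rose and 1 fell of 36 tested, and none was a DEG. Of all genes tested 20.9% were called, 10.8% higher and 10.1% lower. The median log2 fold change was 0.084. In Cond 3 against Cond 1, 3 rose and 8 fell, 11 in all, beside 38.4% of all genes tested, 19.5% higher and 18.8% lower. DEGs numbered 6, 1 higher and 5 lower, beside 8.16% of all genes tested, 4.85% higher and 3.31% lower. The median log2 fold change was -0.34, with 27 of 36 below 0. Between Cond 3 and Cond 2, 4 were higher and 9 lower in Cond 3, beside 38.2% of all genes tested, 19% higher and 19.2% lower. DEGs numbered 7, 2 higher and 5 lower, beside 8.77%, 5.76% higher and 3.01% lower. The count for Cond 3 against Cond 1 was 7 without replicate 1 of Cond 1 and 6 without replicate 2 of Cond 3, and the count for Cond 2 was 1 without replicate 2 or 3 of Cond 1.

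**Figure D4:**
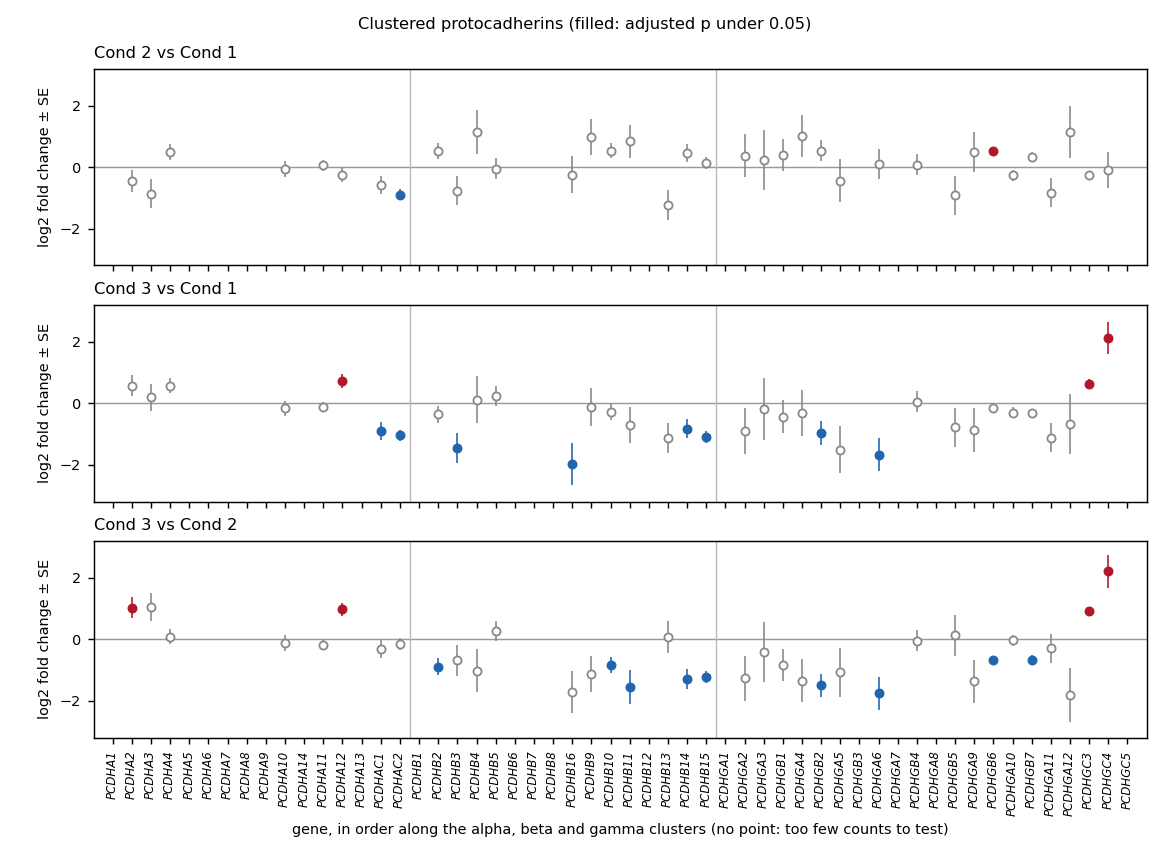
Log2 fold change with its standard error for the 36 tested clustered protocadherins, at their place in the order of all 54 genes along the alpha, beta and gamma clusters, separated by vertical lines. Filled red and blue points have an adjusted p-value under 0.05 for higher and lower levels, and in both comparisons with Cond 3 the filled red points at the right end are PCDHGC3 and PCDHGC4, while the filled points in the beta cluster are all below 0.

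In the alpha cluster PCDHAC2, a first exon of the C type that lies nearest the constant exons, had 261, 167 and 203 reads in Cond 1, 114, 111 and 119 in Cond 2, 94, 120 and 111 in Cond 3 and 182, 156 and 155 in Cond 4. Every library of Cond 2 and Cond 3 held fewer reads than any of Cond 1, and Cond 4 overlapped the control. The fitted log2 fold change was -0.90 (SE 0.18, adjusted p = 8.05e-04) in Cond 2 and -1.04 (SE 0.18, adjusted p = 9.62e-05) in Cond 3, and the call in Cond 2 was lost with limma on log2(TPM + 0.1). PCDHA11 had 177, 97 and 142 reads in Cond 1, 154, 148 and 137 in Cond 2, 149, 134 and 124 in Cond 3 and 157, 167 and 168 in Cond 4. Cond 2, Cond 3 and Cond 4 each overlapped the control, and it had no call. PCDHAC1 was also lower in Cond 3, at -0.90 (SE 0.28, adjusted p = 0.0156), a call lost without replicate 3 of Cond 1 (adjusted p = 0.0602) or replicate 1 of Cond 1 (adjusted p = 0.0564).

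Alpha genes higher in Cond 3 were PCDHA12 and PCDHA2. PCDHA12 had a log2 fold change of 0.72 (SE 0.21, adjusted p = 0.00973) against Cond 1, lost with limma on log2(TPM + 0.1), and 0.98 (SE 0.22, adjusted p = 8.94e-04) against Cond 2. PCDHA2 had 27, 19 and 37 reads in Cond 1, 18, 27 and 17 in Cond 2, 48, 35 and 48 in Cond 3 and 24, 25 and 20 in Cond 4. All libraries of Cond 3 held more reads than those of Cond 2 but overlapped Cond 1. With edgeR the log2 fold change was 0.57 against Cond 1 (adjusted p = 0.189) and 1.03 (SE 0.34, adjusted p = 0.0203) against Cond 2, and the latter call was lost without replicate 3 of Cond 3 (adjusted p = 0.0820) or replicate 1 or 3 of Cond 2. Against Cond 1, alpha first exons thus differed in both directions, with PCDHA12 higher and PCDHAC1 and PCDHAC2 lower in Cond 3.

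Beta genes that changed in Cond 3 were all lower. Of 11 tested, 4 fell and 0 rose against Cond 1, and 5 fell and 0 rose against Cond 2. These were 36.4% and 45.5% of the tested beta genes called, near the 38.4% and 38.2% of all genes tested that were called in either direction. Of all genes tested, 18.8% and 19.2% were called lower. PCDHB15 (ENSG00000113248, chr5:141245395-141249365, forward strand), the last gene of the cluster, had 149, 103 and 146 reads in Cond 1, 134, 181 and 132 in Cond 2, 57, 81 and 59 in Cond 3 and 122, 94 and 134 in Cond 4. All libraries of Cond 3 held fewer reads than all others. On the log2 scale the change was -1.10 (SE 0.20, adjusted p = 1.44e-04) against Cond 1 and -1.23 (SE 0.20, adjusted p = 3.95e-05) against Cond 2. PCDHB2 had 86, 76 and 98 reads in Cond 1, 133, 139 and 112 in Cond 2, 109, 60 and 51 in Cond 3 and 58, 133 and 56 in Cond 4. Cond 2 lay above Cond 1 and Cond 3 in all libraries, and Cond 3 overlapped Cond 1. This gave a log2 fold change of -0.36 against Cond 1 (adjusted p = 0.343) and -0.88 (SE 0.28, adjusted p = 0.0140) against Cond 2, lost without replicate 3 of Cond 3 (adjusted p = 0.0781) or replicate 2 of Cond 3, and an antisense transcript overlaps 43.9% of its exonic bases.

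The other beta genes rested on fewer reads. PCDHB14 had 70, 49 and 40 reads in Cond 1, 62, 67 and 95 in Cond 2, 43, 21 and 33 in Cond 3 and 69, 49 and 48 in Cond 4. Cond 3 lay below Cond 2 in all libraries and overlapped Cond 1. Its log2 fold change was -1.28 (SE 0.31, adjusted p = 0.00230) against Cond 2, kept under every alternative that gave a value, and -0.83 (SE 0.32, adjusted p = 0.0448) against Cond 1, lost under 8 alternatives that included leaving out replicate 1 of Cond 1 (adjusted p = 0.204), replicate 2 of Cond 1 or replicate 2 or 3 of Cond 3. PCDHB3 had 19, 27 and 21 reads in Cond 1, 10, 18 and 13 in Cond 2, 5, 8 and 13 in Cond 3 and 17, 15 and 17 in Cond 4. Every library of Cond 3 held fewer reads than any of Cond 1. It fell in Cond 3 with a log2 fold change of -1.45 (SE 0.49, adjusted p = 0.0227), lost without replicate 1 of Cond 3 (adjusted p = 0.118), replicate 2 of Cond 3 or replicate 2 of Cond 1.

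PCDHB16 had 13, 15 and 17 reads in Cond 1, 9, 22 and 9 in Cond 2, 2, 2 and 8 in Cond 3 and 27, 6 and 16 in Cond 4. Every library of Cond 3 held fewer reads than any of Cond 1, while Cond 4 overlapped both. Its fall in Cond 3, -1.96 (SE 0.68, adjusted p = 0.0267), was -2.97 without replicate 3 of Cond 3 (adjusted p = 0.00973) and lost the call without replicate 1 (adjusted p = 0.120) or 2 of Cond 3 or replicate 2 or 3 of Cond 1. PCDHB11 had 14, 11 and 11 reads in Cond 1, 14, 34 and 20 in Cond 2, 13, 7 and 4 in Cond 3 and 7, 4 and 19 in Cond 4. Cond 3 overlapped Cond 1 but lay below every library of Cond 2. It was called between Cond 3 and Cond 2, at -1.54 (SE 0.56, adjusted p = 0.0337), but not without replicate 2 of Cond 2 (adjusted p = 0.165), replicate 3 of Cond 2, or replicate 2 or 3 of Cond 3. PCDHB10 was lower in Cond 3 than in Cond 2 by a log2 fold change of -0.82 (SE 0.26, adjusted p = 0.0145), lost without replicate 1 of Cond 3 (adjusted p = 0.0706), replicate 3 of Cond 3 or replicate 2 of Cond 2. Of the 4 beta calls against Cond 1, that of PCDHB15 alone held in every alternative that gave a value.

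In the gamma cluster the genes with the most reads differed mainly between the media. PCDHGB7 had 256, 204 and 282 reads in Cond 1, 354, 332 and 270 in Cond 2, 202, 199 and 230 in Cond 3 and 195, 205 and 289 in Cond 4. Cond 2 lay above Cond 3 in all libraries. The fitted log2 fold change was 0.33 in Cond 2 (adjusted p = 0.109), -0.32 in Cond 3 (adjusted p = 0.0901) and -0.66 (SE 0.15, adjusted p = 0.00100) in Cond 3 against Cond 2. PCDHGB6 had 264, 158 and 203 reads in Cond 1, 290, 328 and 291 in Cond 2, 240, 190 and 166 in Cond 3 and 155, 170 and 158 in Cond 4. Reads were more numerous in every library of Cond 2 than in any other. It rose in Cond 2, 0.51 (SE 0.14, adjusted p = 0.0121), a call lost without replicate 2 (adjusted p = 0.0664) or 3 of Cond 1 (adjusted p = 0.0659), and was lower in Cond 3 than in Cond 2, -0.68 (SE 0.14, adjusted p = 6.11e-04).

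Of the C type gamma genes, the 2 tested rose in Cond 3, and PCDHGC5 was too low to test. PCDHGC3, whose control libraries held 134 to 173 reads and those of Cond 3 held 210 to 309, had log2 fold changes of 0.64 (SE 0.15, adjusted p = 0.00151) against Cond 1 and 0.91 (SE 0.15, adjusted p = 4.36e-05) against Cond 2. PCDHGC4, known for its role in neuron survival, had 9, 2 and 20 reads in Cond 1, 11, 9 and 9 in Cond 2, 40, 35 and 66 in Cond 3 and 9, 5 and 6 in Cond 4. All libraries of Cond 3 held more reads than any other library. With edgeR the log2 fold change was 2.13 (SE 0.53, adjusted p = 0.00257) against Cond 1 and 2.22 (SE 0.53, adjusted p = 0.00192) against Cond 2, and without replicate 3 of Cond 1 the first was 2.95 (adjusted p = 8.24e-04). Both genes kept their calls under every alternative that gave a value.

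Gamma genes lower in Cond 3 were PCDHGB2 and PCDHGA6. PCDHGB2 had 29, 25 and 21 reads in Cond 1, 29, 48 and 36 in Cond 2, 13, 11 and 17 in Cond 3 and 27, 33 and 28 in Cond 4. Cond 3 held fewer reads than all other libraries. On the log2 scale the change was -1.5 (SE 0.37, adjusted p = 0.00250) against Cond 2 and -0.97 (SE 0.38, adjusted p = 0.0468) against Cond 1, the latter lost under 9 alternatives that included leaving out replicate 2 of Cond 3 (adjusted p = 0.134), replicate 1 of Cond 3 or replicate 1 or 2 of Cond 1. PCDHGA6 had 24, 8 and 20 reads in Cond 1, 17, 22 and 17 in Cond 2, 7, 4 and 6 in Cond 3 and 13, 6 and 8 in Cond 4. Every library of Cond 3 held fewer reads than any of Cond 1 or Cond 2. This gave a log2 fold change of -1.67 (SE 0.55, adjusted p = 0.0194) against Cond 1, lost without replicate 1 of Cond 1 (adjusted p = 0.103), replicate 3 of Cond 1 or replicate 2 of Cond 3, and -1.75 (SE 0.55, adjusted p = 0.0139) against Cond 2, lost without replicate 2 of Cond 3 (adjusted p = 0.0624).

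Summed over each cluster, beta genes separated the media most clearly. The beta sum was 25, 21.8 and 20.3 TPM in Cond 1, 26.0, 30.8 and 28.6 in Cond 2, 16.6, 14.9 and 14.3 in Cond 3 and 23.9, 20.8 and 18.4 in Cond 4. Cond 3 was below and Cond 2 above Cond 1 in all libraries, and the means were 22.4 ± 2.37 (SD, n = 3), 28.5 ± 2.42, 15.3 ± 1.21 and 21.0 ± 2.75. The gamma sum was 32.5 ± 3.49 TPM in Cond 1, 38.4 ± 0.492 in Cond 2, 31.7 ± 1.93 in Cond 3 and 30.3 ± 0.628 in Cond 4, and Cond 3 and Cond 4 overlapped Cond 1. The alpha sum was 20.0 ± 3.36 TPM in Cond 1, 16.3 ± 1.63 in Cond 2, 18.4 ± 1.15 in Cond 3 and 19.5 ± 1.68 in Cond 4, and all conditions overlapped the control, although PCDHAC2 and PCDHA12 moved in opposite directions in Cond 3.

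**Figure D5:**
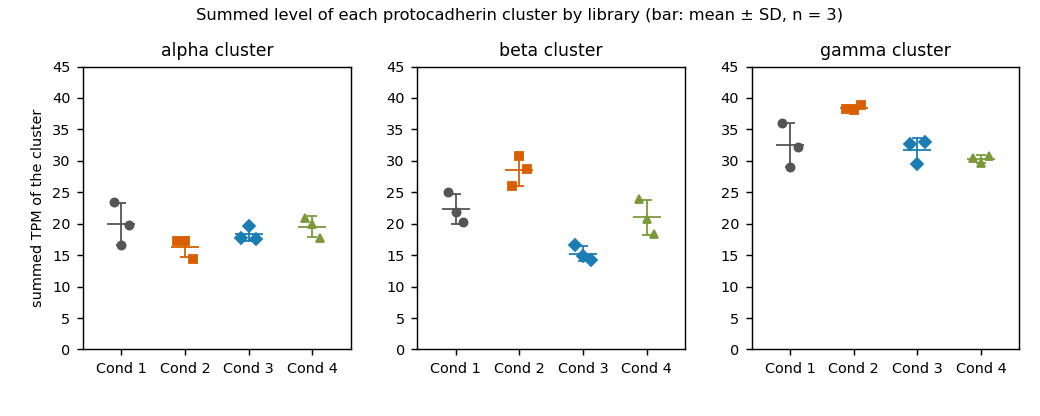
Summed TPM of the 16 alpha, 16 beta and 22 gamma genes in each library, with the mean and SD of the 3 libraries of each condition as a horizontal mark with bars. The beta sum separates Cond 2 and Cond 3 from Cond 1 in opposite directions, and the alpha sums overlap.

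The regulators known to act on the clustered promoters, a list of 22 genes for CTCF, cohesin, SMCHD1, REST and DNA methylation, were all tested. Of these 12 were higher and 0 lower in Cond 2, and 9 higher and 1 lower in Cond 3, where 10.8% and 19.5% of all genes tested were higher. None was a DEG, and the median log2 fold change was 0.20 in Cond 2 and 0.14 in Cond 3. Among 16 genes for the processing and glycosylation of cadherins, 1 rose and 4 fell in Cond 2, and 4 rose and 7 fell in Cond 3, where 10.1% and 18.8% of all genes tested were lower, none as a DEG. Among 16 tested regulators of cadherin transcription, 2 rose in Cond 2, of which the surface ectoderm factor GRHL3 was a DEG at 1.02 (SE 0.36, adjusted p = 0.0464), and in Cond 3 1 rose and SNAI2, which had less than 1 TPM in all conditions, fell.

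Catenins and plaque proteins bind the cytoplasmic tails of cadherins. Of 18 tested, 7 rose and 2 fell in Cond 2, with a median log2 fold change of 0.18, and 12 rose and 2 fell in Cond 3, with a median of 0.25, beside 20.9% and 38.4% of all genes tested called in either direction. CTNNA2, the neural alpha-catenin, was the DEG of Cond 2, at 7.31 ± 0.490 TPM (SD, n = 3) in Cond 1 and 16 ± 2.03 TPM in Cond 2, a log2 fold change of 1.04 (SE 0.11, adjusted p = 3.41e-07). In Cond 3 the DEGs were the desmosomal plakophilin PKP1 at 2.58 (SE 0.54, adjusted p = 5.41e-04) and the cornified envelope protein EVPL at 2.44 (SE 0.68, adjusted p = 0.00671), with means of 1.46 ± 0.679 and 0.842 ± 0.443 TPM. VCL, vinculin, which links junctions to actin, was lower in Cond 3 than in Cond 2 by a log2 fold change of -1.09 (SE 0.046, adjusted p = 2.48e-14).

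Of the further superfamily genes, 17 of 21 were tested, with 8 higher and 3 lower in Cond 2 and 9 higher and 3 lower in Cond 3, beside 10.8% higher and 10.1% lower of all genes tested in Cond 2 and 19.5% and 18.8% in Cond 3. The atypical cadherins FAT4 and FAT2, known for planar polarity and cell migration, were DEGs in both media, with log2 fold changes of 1.83 (SE 0.23, adjusted p = 2.62e-06) and 1.60 (SE 0.30, adjusted p = 3.91e-04) in Cond 2 and 1.57 (SE 0.23, adjusted p = 1.10e-05) and 1.92 (SE 0.30, adjusted p = 2.15e-05) in Cond 3, at means of at most 1.72 TPM. FAT3, at a mean of 9.25 TPM in Cond 1, was lower in both media. Its log2 fold changes were -0.53 (SE 0.14, adjusted p = 0.00759) in Cond 2 and -0.56 (SE 0.14, adjusted p = 0.00258) in Cond 3. FAT1 was higher in Cond 2 at 0.82 (SE 0.086, adjusted p = 1.78e-07). The other DEGs in Cond 2 were CDHR1 at 1.12 (SE 0.19, adjusted p = 1.09e-04) and CDHR3 at -1.0004 (SE 0.28, adjusted p = 0.0112). In Cond 3 the other DEG was CLSTN2 at 1.18 (SE 0.30, adjusted p = 0.00368). N-cadherin, CDH2, rose in Cond 2 at 0.87 (SE 0.07, adjusted p = 2.32e-09) and was lower than the control in Cond 3 at -0.19 (SE 0.071, adjusted p = 0.0375). Between the media it was lower in Cond 3 than in Cond 2 by -1.06 (SE 0.07, adjusted p = 5.87e-11). CDH6 and CDH9 were also lower in Cond 3 than in Cond 2 but, unlike CDH2, higher in Cond 3 than in Cond 1.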

How the data were processed

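Per the labels and the study's methods, directional poly(A) libraries were trimmed with cutadapt 4.1 and fastp 0.20.1, aligned to GRCh38 with HISAT2 2.1.0 and counted per gene with featureCounts, after base calling with bcl2fastq 2.20.0.422. The strand and multi-mapping settings of the counting are not given in the sources used here. The authors deposited whole-number counts and TPM values per gene, TPM being scaled by gene length and library. Of the lines with counts, 5 held no whole gene row and were left out. Counts entered the tests and TPM values the levels.

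Groups came from the labels. Counts were fitted with edgeR 4.0.16 (R 4.3.3) in one quasi-likelihood model over all 12 libraries, with TMM normalization and the filterByExpr filter, which left 17747 genes. The procedure was tested on simulated data. The changed genes there were drawn only above a level that most clustered members do not reach, so recovery for genes with few reads was not tested. The alternatives were DESeq2 1.42.0, limma 3.58.1 on log2(TPM + 1) or log2(TPM + 0.1), other filters, normalizations, thresholds and sample sets, and leaving out each replicate. The members, gene lists and cell type marker lists were chosen with earlier results of these data known. Members were given library by library when they were DEGs in any comparison (outside the clusters, with a mean of at least 1 TPM in a condition), among the 5 highest in mean TPM outside the clusters, or among the 2 highest in mean count in each cluster. Other genes were named when they were DEGs or defining markers. Coordinates came from GENCODE 44 on GRCh38, and promoters from RefSeq, which held 47 of 54 clustered genes. A total of 16441148 to 21871503 counts per library sets the precision, and for genes with few reads counting error alone is large.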

Additional observations from a re-analysis of the deposited data

How the results depend on the processing

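No member called in any comparison changed direction under any alternative. Calls in the protocadherin clusters rested on few reads and depended more on the setting than those outside. The count of 2 clustered genes in Cond 2 became 0 with limma on log2(TPM + 0.1), 4 with limma on log2(TPM + 1) restricted to genes with TPM of at least 1 in all libraries, 0 with a fold above 2 and 1 with an adjusted p-value under 0.01, and ranged from 1 to 3 when each replicate was left out. The count of 11 in Cond 3 became 7 with limma on log2(TPM + 1) or log2(TPM + 0.1), 5 with limma and the TPM restriction, 6 with a fold above 2 and 5 under 0.01, and ranged from 6 to 11 with replicates left out. The 13 clustered calls of Cond 3 against Cond 2 became 7 with limma and the TPM restriction, 7 with a fold above 2 and 8 under 0.01. Outside the clusters, the 10 calls in Cond 2 became 6 with a fold above 2, the 18 in Cond 3 became 8 with limma and the TPM restriction, and the 13 of Cond 3 against Cond 2 became 8 with it and 6 with a fold above 2. A higher threshold on fold or p makes fewer calls by construction. The restriction on TPM changes the tool and the filter together and tests fewer members, and the cause of its differences and the others was not tested.

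With the replicate number as a block, the clustered calls were 2 in Cond 2, 11 in Cond 3, 13 in Cond 3 against Cond 2 and 0 in Cond 4, and the calls outside the clusters 11, 18, 14 and 0. CDH22 in Cond 2 lost its call with the block (adjusted p = 0.0536), as did PCDHGB2 in Cond 3 (adjusted p = 0.0598). The numbers are not stated to pair the samples: over 18 pairs with the same number, the correlation of deviations from the group means lay between -0.013 and 0.038, and 3 of 12 libraries correlated best with their own number.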
